A study of Mus musculus with 6 samples.

Results

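The AP-1 family genes were examined in hepatocytes of mice given the transcription factor gene Sox4. They comprised 10 genes taken by symbol from the 53599 gene symbols of the count table, namely the FOS genes Fos, Fosb, Fosl1 and Fosl2, the JUN genes Jun, Junb and Jund, and the related genes Batf, Maff and Mafk. Of these, 8 passed the filter on low counts (12691 genes passed it in all), and Fosl1 and Batf did not. The study delivered Sox4 with an adeno-associated virus (AAV8), a vector that carries genes into cells of the living animal, and sequenced RNA of hepatocytes 4 days later. The Sox4 group (3 libraries) received AAV8-TBG-HA-Sox4-P2A-Cre, which makes HA-tagged mouse SOX4 and Cre recombinase, and the control group, called empty vector (EV, 3 libraries), received AAV8-TBG-Cre. Both groups therefore carried AAV8 and Cre, and both transgenes were driven by TBG, a promoter active in hepatocytes. In the study's methods the empty vector also holds a guide RNA backbone, so the vectors differed in more than Sox4. The labels give the genotype of the EV animals as WT and of the others as Sox4, and give no age. The study's methods describe its mice as Rosa-LSL-Cas9-EGFP on a C57BL/6J background, in which Cre also switches on Cas9 and EGFP. Hepatocytes came from a liberase digestion of the liver followed by enrichment on Percoll, a density gradient medium, so all libraries had passed through enzymatic dissociation. The study describes the libraries of each group as separate animals, which the labels do not state, and p-values measure the spread between the 3 libraries of a group.

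AP-1 is a DNA-binding complex of paired proteins joined by a leucine zipper. FOS proteins cannot pair with each other and bind DNA together with a JUN protein, whereas JUN proteins also pair among themselves. Both kinds of pair bind the sequence TGANTCA, where N is mostly C or G. BATF pairs with JUN proteins but lacks a transactivation domain, and the small MAF proteins MAFF and MAFK also lack one and pair with CNC factors such as NRF2. Many of these genes are immediate early genes, which are transcribed within minutes of growth factor, stress or injury signals, and in liver they are known for their rapid response to partial hepatectomy and to cell isolation.

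RefSeq promoter windows (GRCm38.p6, 250 bases before to 50 after the transcription start) were held for 9 of the 10 members. Stretches of 120 bases that end at the base before the start are shown for the FOS genes that rose, for Maff, which also rose, and for Jun, the JUN gene of highest mean level per length, so that the rising and the unresolved genes can be set side by side. They are written 5′ to 3′ on the strand of the gene, with matches to TGACG, the core bound by CREB and ATF factors, or to TGACATCA, an AP-1-like octamer, in capitals. The stretches are Fos at chr12:85473770-85473889 (plus strand), Fosb at chr7:19310046-19310165 (minus), Fosl2 at chr5:32136352-32136471 (plus), Maff at chr15:79347400-79347519 (plus, the second of 3 windows) and Jun at chr4:95052223-95052342 (minus).
Fos: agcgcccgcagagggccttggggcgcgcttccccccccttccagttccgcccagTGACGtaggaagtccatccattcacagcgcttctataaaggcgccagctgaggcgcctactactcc
Fosb: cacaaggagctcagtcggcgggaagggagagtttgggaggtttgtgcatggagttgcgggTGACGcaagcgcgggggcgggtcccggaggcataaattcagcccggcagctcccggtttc
Fosl2: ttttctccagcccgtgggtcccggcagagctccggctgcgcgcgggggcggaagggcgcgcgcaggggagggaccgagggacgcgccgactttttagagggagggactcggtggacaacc
Maff: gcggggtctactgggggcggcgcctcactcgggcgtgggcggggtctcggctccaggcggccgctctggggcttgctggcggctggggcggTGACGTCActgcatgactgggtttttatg
Jun: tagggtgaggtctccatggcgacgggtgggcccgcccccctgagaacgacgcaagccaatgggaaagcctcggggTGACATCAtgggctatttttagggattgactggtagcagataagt

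No member window held TGANTCA, searched with any base at N and so wider than the AP-1 site with C or G. This wider pattern was present on either strand in 7.81% of all 32851 windows of the same length. TGACG was present in the windows of Fos, Fosb, Maff, Junb, Mafk and Batf, and in 20.8% of all windows. In Fos it began 66 bases and again 129 bases before the start, in Fosb 60 bases before it and in Maff 29 bases before it. The match in Maff was part of the full octamer TGACGTCA, which 1.79% of all windows held. Jun held TGACATCA beginning 45 bases before its start, as did the third window of Maff, against 3.62% of all windows. Fosl2 and Jund held none of these letters in the window. The Jund window does not reach its gene in the GENCODE M21 annotation, which begins at chr8:70698949. The stretch before its RefSeq start ends at chr8:70697738, so the bases just before the GENCODE start were not examined. Members that rose and members that did not pass the test both held TGACG, and a match of letters does not show that a factor was bound.

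The libraries held 15090629 to 16249382 counts in EV and 16679195 to 16964860 in Sox4, and a count of 3, taken as the floor of detection, was 0.218 to 0.231 CPM (counts per 1e+06 counts of the scaled library) for EV and 0.150 to 0.153 for Sox4. Levels below are CPM after scaling with TMM (trimmed mean of M-values), given as mean ± SD. The delivered gene Sox4 had 2, 0 and 3 counts in the EV libraries and 21697, 15097 and 11816 in the Sox4 libraries. Sox4 and EV were compared by the edgeR quasi-likelihood test with Benjamini-Hochberg adjustment over all genes tested, and a gene is said to rise or fall where its adjusted p was under 0.05. Of all genes tested, 55.1% passed, 29.0% higher and 26.0% lower, so a change was common in these libraries. Changes are relative to the TMM scale. The log2 fold change of the median gene was 0.041 on that scale and 0.51 with library size alone. Total counts in Sox4 were 1.07 times those in EV, and after TMM scaling this factor was 1.48.

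Fos, Fosb, Fosl2 and Maff rose, and no member fell. Jun, Junb, Jund and Mafk did not pass the test. Thus 4 of 8 tested members were higher, against 29.0% of all genes. In the same 4 genes every Sox4 library lay above every EV library, a pattern seen in 33.1% of all genes. With library size alone 7 of the 8 passed as higher, Junb being the exception, against 51.0% of all genes on that scale.

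**Figure D1:**
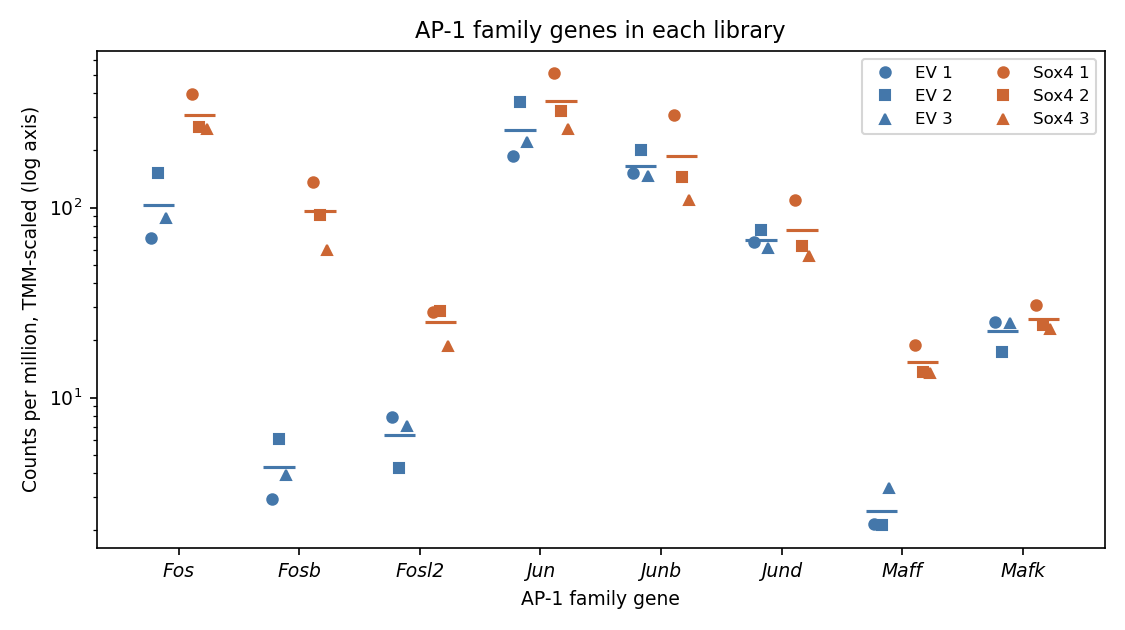
Level of each tested AP-1 family gene in each library, in TMM-scaled CPM on a log axis. Points are libraries (EV in blue, Sox4 in orange, with a symbol for each replicate number) and lines are group means (n = 3). The groups are apart for Fos, Fosb, Fosl2 and Maff and overlap for Jun, Junb, Jund and Mafk.

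Fos, the founding FOS gene and a classical immediate early gene, had 897, 1999 and 1206 counts in the libraries EV 1 to 3 and 7946, 5216 and 5108 in Sox4 1 to 3. These were 69.1, 152 and 87.6 CPM in EV and 398, 266 and 259 CPM in Sox4. The lowest Sox4 library was above the highest EV library, EV 2. Fos rose from 103 ± 43.4 to 308 ± 78.4 CPM (SD, n = 3), 2.99-fold (log2 fold change 1.58, SE 0.39, edgeR adjusted p = 0.00296).

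Fosb encodes a FOS protein that accumulates under repeated stimulation in its short form. It had 38, 80 and 54 counts in EV and 2715, 1790 and 1176 in Sox4, which is 2.93, 6.07 and 3.92 CPM against 136, 91.4 and 59.6 CPM. Fosb showed the widest separation among the members, with no overlap between groups and the highest value in Sox4 1. Its mean rose 22.2-fold, from 4.31 ± 1.61 to 95.7 ± 38.4 CPM (SD, n = 3; log2 fold change 4.47, SE 0.45, edgeR adjusted p = 0.000109). The log2 value was between 4.13, without Sox4 1, and 4.78, without EV 2, when a library was left out.

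Fosl2 encodes FRA-2, a FOS-related protein without the strong transactivation domain of FOS. Its counts were 102, 56 and 97 in EV and 562, 558 and 367 in Sox4, or 7.86, 4.25 and 7.04 CPM against 28.2, 28.5 and 18.6 CPM. The groups were apart, and EV 2, the highest EV library for Fos and Fosb, was the lowest for Fosl2. Fosl2 rose from 6.39 ± 1.89 to 25.1 ± 5.62 CPM (SD, n = 3), 3.93-fold (log2 fold change 1.97, SE 0.33, edgeR adjusted p = 0.000159). Fosl1, which encodes FRA-1, had no count in any EV library and 1, 0 and 4 counts in Sox4. It could not be tested at this depth, since 0 counts allow up to 0.231 CPM in EV. The 3 FOS genes that passed the filter thus rose, and the fourth could not be compared.

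Jun encodes the principal partner of FOS proteins and had the highest mean level per length in EV. It had 2423, 4705 and 3054 counts in EV and 10148, 6347 and 5111 in Sox4, or 187, 357 and 222 CPM against 509, 324 and 259 CPM. The groups overlapped, because EV 2 was above Sox4 2 and Sox4 3. The means were 255 ± 90.1 and 364 ± 129 CPM (SD, n = 3; log2 fold change 0.51, SE 0.40, edgeR adjusted p = 0.191). Jun passed as higher without EV 2 (0.82, adjusted p = 0.0404), with library size alone (0.99, adjusted p = 0.0202), where its groups did not overlap, and with no filter on low counts (0.55, adjusted p = 0.0160), so a change of Jun is unresolved.

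Junb, often an antagonist of JUN in growth control, had 1982, 2633 and 2017 counts in EV and 6134, 2844 and 2157 in Sox4. On the CPM scale this was 153, 200 and 146 against 307, 145 and 109, so that Sox4 1 was the highest library of all and the other Sox4 libraries were below every EV library. The log2 fold change of Junb was 0.17 (SE 0.47, edgeR adjusted p = 0.727) and was -0.39 without Sox4 1 (adjusted p = 0.0831). Jund, the JUN gene that is widely expressed in resting cells, had 854, 999 and 839 counts in EV and 2189, 1231 and 1095 in Sox4, or 65.8, 75.9 and 60.9 CPM against 110, 62.9 and 55.5 CPM. Jund likewise was highest in Sox4 1 and overlapped otherwise, with a log2 fold change of 0.17 (SE 0.32, edgeR adjusted p = 0.571) that was -0.19 without Sox4 1 and 0.64 with library size alone (adjusted p = 0.0443).

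Gene bodies of the JUN genes overlap other annotated genes in GENCODE M21, and the strand setting of the counting was not stated, so reads in the shared stretches cannot be told apart. Jun overlaps the antisense gene Junos by 689 bases, Junb overlaps Prdx2 by 351 bases and Jund overlaps the antisense gene Gm11175 by 919 bases. Junos itself had between 8 and 21 counts in a library and Gm11175 had none. Prdx2 had 1467, 1266 and 1246 counts in EV and 5979, 5735 and 4771 in Sox4. Whether reads of Prdx2 entered the counts of Junb was not tested. Fos, Fosb, Fosl2 and Maff overlap no annotated gene there.

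Maff encodes a small MAF protein that pairs with CNC factors at antioxidant response elements. It had 28, 28 and 46 counts in EV and 377, 268 and 266 in Sox4, or 2.16, 2.13 and 3.34 CPM against 18.9, 13.7 and 13.5 CPM. Every Sox4 library was above every EV library and the spread within groups was narrow. Maff rose from 2.54 ± 0.69 to 15.4 ± 3.07 CPM (SD, n = 3), 6.01-fold, with the smallest adjusted p among the members (log2 fold change 2.59, SE 0.26, edgeR adjusted p = 1.98e-05). Mafk, a paralog with the same partners, had 325, 230 and 338 counts in EV and 611, 474 and 455 in Sox4. Its CPM were 25.0, 17.5 and 24.5 against 30.6, 24.2 and 23.1, which overlap, and its log2 fold change was 0.22 (SE 0.21, edgeR adjusted p = 0.315), or 0.68 with library size alone (adjusted p = 0.00734). Mafk overlaps Tmem184a by 169 bases. Batf, best known from lymphocytes, had 0, 2 and 2 counts in EV and 0, 1 and 2 in Sox4, at or under the floor in every library.

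**Figure D2:**
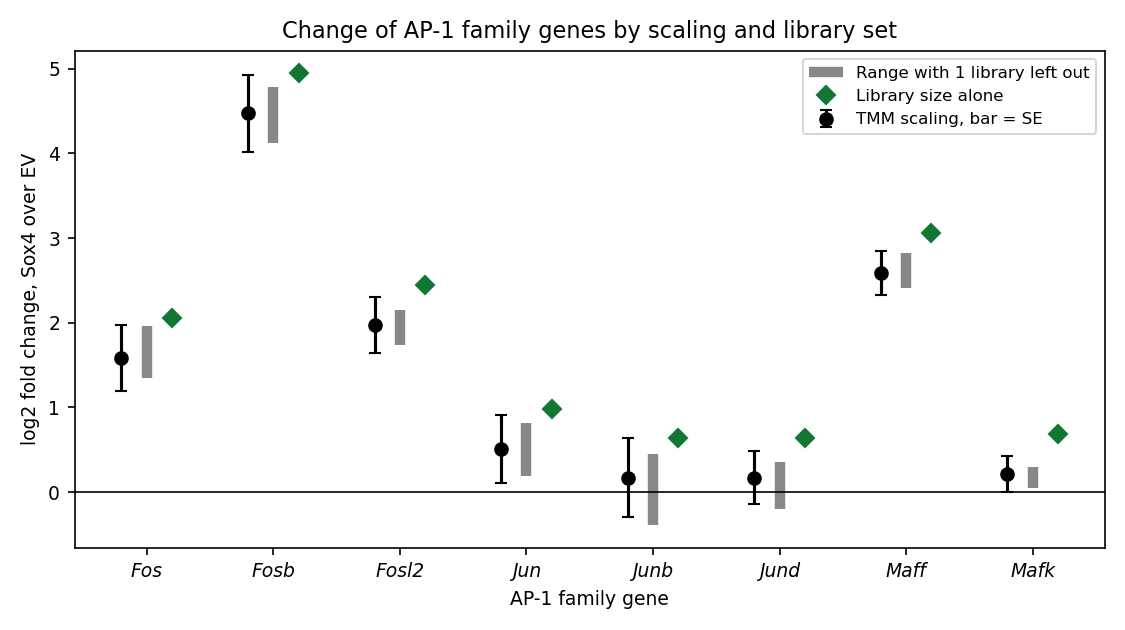
log2 fold change of Sox4 over EV for the 8 tested genes with TMM scaling (black, bar = SE, n = 3 per group), the range over fits that each left out 1 library (grey) and the value with library size alone (green). Fos, Fosb, Fosl2 and Maff stay above 1 in each, whereas the grey ranges of Junb (-0.39 to 0.45) and Jund (-0.19 to 0.36) cross 0.

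The order of the members was compared per length, as CPM per kilobase of exon, since longer genes collect more reads. In EV the order was Jun (80.0 ± 28.2 CPM per kilobase), Junb (72.3 ± 12.7), Fos (43.7 ± 18.4), Jund (40.5 ± 4.56), Mafk (5.73 ± 1.09), Maff (0.98 ± 0.27), Fosb (0.69 ± 0.26) and Fosl2 (0.66 ± 0.20). The mean ± SD ranges of Jun, Junb and Fos overlapped, as did those of Fos and Jund, and of Maff, Fosb and Fosl2, but this spread is between libraries. Within each EV library Fos was below Jun and Junb. Its share of the summed FOS and JUN signal per length was 15.1% to 20.8%, against 30% to 36.1% for Jun and 28% to 34% for Junb. The order of Jun and Junb, and of Fos and Jund, differed between EV libraries. In Sox4 the order was Fos (131 ± 33.3 CPM per kilobase), Jun (114 ± 40.6), Junb (81.4 ± 45.9), Jund (45.6 ± 17.6), Fosb (15.3 ± 6.15), Mafk (6.66 ± 1.05), Maff (5.92 ± 1.18) and Fosl2 (2.59 ± 0.58). The ranges of Fos, Jun and Junb overlapped again, as did those of Junb and Jund, and of Mafk and Maff. Within each Sox4 library, however, the order was Fos, Jun, Junb and Jund, with Fos and Jun closest in Sox4 1 (shares of 30.6% and 28.8%). Fosb passed from near the bottom of the list to a level above that of Mafk and Maff, although it stayed below the JUN genes.

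The balance of FOS and JUN transcripts was measured within each library, where no scaling between libraries enters. The log2 ratio of summed FOS counts to summed JUN counts was -2.34, -1.97 and -2.12 in EV 1 to 3 and -0.72, -0.46 and -0.33 in Sox4 1 to 3. JUN transcripts were in excess in every library, and less so in every Sox4 library than in any EV library. The mean ratio was -2.14 ± 0.19 in EV and -0.50 ± 0.20 in Sox4 (SD, n = 3), a difference of 1.64, which was 1.61 without Jund and 1.51 with counts divided by gene length. Described per length, the FOS genes together made up 18.5 ± 2.76% of FOS and JUN signal in EV and 39.1 ± 3.90% in Sox4. Most of this was Fos, at 17.9 ± 2.86% and 34.5 ± 4.11%. The share of Fosb was 0.285 ± 0.039% and 3.90 ± 0.52%, and that of Fosl2 stayed under 1% in each library. Among the JUN genes the share of Jun was 33.2 ± 3.05% in EV and 29.3 ± 1.02% in Sox4, that of Junb 30.9 ± 3.03% and 20.0 ± 3.81%, and that of Jund 17.5 ± 2.79% and 11.6 ± 0.30%. These shares describe mRNA, not protein pairs, and whether single FOS genes changed more than single JUN genes was not tested.

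**Figure D3:**
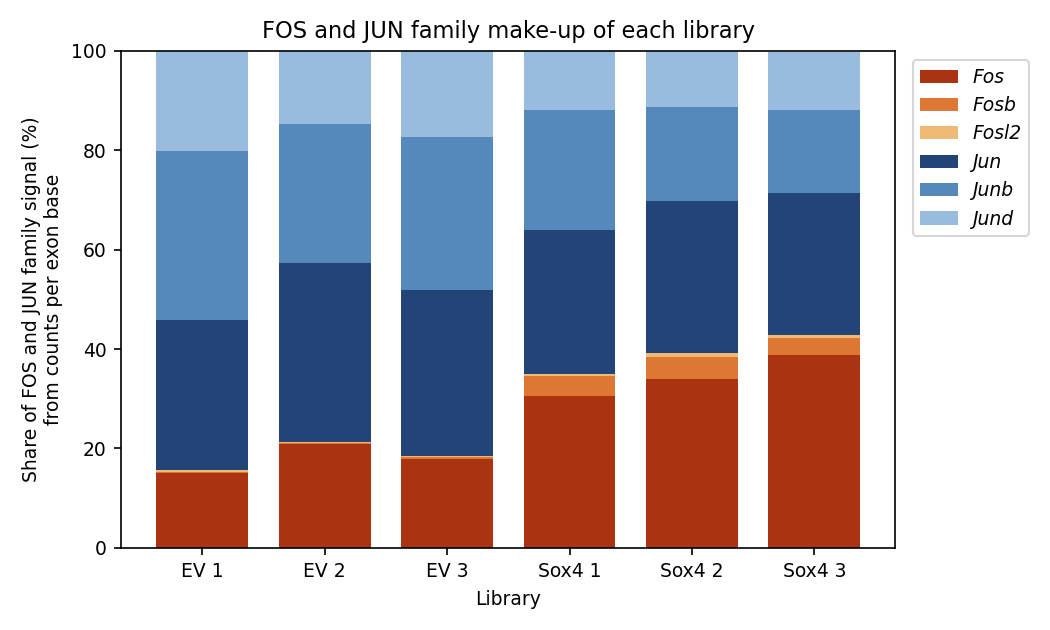
Share of each FOS and JUN gene in the summed FOS and JUN signal of each library, in percent, from counts divided by exon length. The FOS genes (red to yellow) take 15.7% to 21.3% in EV and 35.1% to 42.9% in Sox4, and Fosl1, at most 0.0352%, is not drawn.

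AP-1 transcripts also varied among libraries of the same group. EV 2 was the highest EV library for 5 of 8 tested members, Fos, Fosb, Jun, Junb and Jund, against 28.4% of all tested genes. Sox4 1 was the highest Sox4 library for 7 of 8 members, Fosl2 being the exception, against 40.1% of all tested genes. The 4 members that rose also did so in the fits without EV 2 and without Sox4 1. For Fos the log2 fold change was 1.96 without EV 2 and 1.35 without Sox4 1 (edgeR adjusted p = 0.000286 and 0.0225).

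Other genes around the family were read from fixed lists, chosen with earlier results of these data known. The counts of each list stand beside 29.0% of all tested genes higher and 26.0% lower. Among 10 further bZIP genes, 6 were tested and 2 rose and 1 fell. Atf3, a stress-induced bZIP gene whose protein pairs with JUN, had 38, 138 and 101 counts in EV and 2546, 1970 and 1479 in Sox4 (log2 fold change 3.87, SE 0.57, edgeR adjusted p = 0.000413). Maf rose by 0.53 on the log2 scale, but did not pass without EV 2 or without Sox4 2. Atf2 (0.12), which pairs with JUN, Atf7 (0.16) and Mafg (-0.02) did not pass, although all 3 passed as higher with library size alone. The median log2 fold change of these genes was 0.14. Jdp2, an AP-1 repressor, had 0, 3 and 1 counts in EV and 8, 14 and 24 in Sox4 and was below the filter.

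The partners of the small MAF proteins were all tested, and 3 of 6 rose and 2 fell (median log2 fold change 0.37). Nfe2l2, which encodes the antioxidant regulator NRF2, had 1552, 1426 and 1554 counts in EV and 5002, 5067 and 5452 in Sox4 and rose by 1.21 in log2 (SE 0.06, edgeR adjusted p = 2.13e-05). Bach1, a repressor at the same elements, rose by 0.83 (SE 0.12, edgeR adjusted p = 0.000382). Activator and repressor genes of this group were thus both higher. Nfe2l3 had 3 counts over the EV libraries and 414 over the Sox4 libraries, a ratio of 92.9 with a 95% exact interval of 31.6 to 452 that covers counting error only (edgeR adjusted p = 2.03e-05). Nfe2, of the erythroid lineage, fell by 2.11 on the log2 scale, from at most 40 counts in a library, and Nfe2l1 fell by 0.43. The call of Nfe2l1 was lost without EV 1, EV 2, Sox4 2 or Sox4 3, and its log2 value was 0.03 with library size alone. Bach2 (-0.09) did not pass.

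Kinases and transcription factors that induce FOS and JUN genes moved in both directions. Of 15 tested, 5 rose and 3 fell, near the shares of all genes, 29.0% higher and 26.0% lower. Their median log2 fold change was 0.064, close to the 0.041 of all genes. Mapk3, which encodes ERK1, rose by 1.36 (SE 0.09, edgeR adjusted p = 1.17e-05), and Mapk8, which encodes the JUN kinase JNK1, rose by 1.11 (SE 0.12, adjusted p = 7.66e-05). Creb1, whose protein binds the CRE at Fos, had 171, 206 and 222 counts in EV and 725, 761 and 810 in Sox4 and rose by 1.37 in log2 (SE 0.10, adjusted p = 2.02e-05). These were the calls kept under every alternative. Srf (0.70) and Mef2d (0.44) rose, but Srf lost the threshold when any EV library or Sox4 1 was left out, and Mef2d without EV 2 or EV 3. Mapk14, which encodes p38 alpha, fell by 0.64 and Map2k1 by 0.37. With library size alone Mapk14 did not pass (-0.17) and Map2k1 lay above 0 (0.10), and Map2k1 also did not pass without Sox4 2. Mapk9 (-0.11), Map2k7 (-0.02) and Elk4 (0.04) were among those that did not pass, although all 3 passed as higher with library size alone.

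Of 7 genes whose products degrade AP-1 proteins or mRNA or dampen the pathway, 1 rose and 1 fell, and neither call was kept under every alternative. Trib1, an adaptor of the COP1 ligase, rose by 0.72 (edgeR adjusted p = 0.0153) and lost the call without EV 1 and in a fit with replicate number as a block. Det1 fell by 0.80 (adjusted p = 0.00848) and lost the call with library size alone. Zfp36, which destabilizes mRNA, had a log2 value of -0.44 (SE 0.38, adjusted p = 0.232) and passed as lower without Sox4 1 (-0.88, adjusted p = 0.00117) and with no filter (-0.40, adjusted p = 0.0469), but lay at 0.03 with library size alone. Dusp1, a phosphatase of MAP kinases, was at 0.06 (SE 0.28, adjusted p = 0.837). Cop1 was at -0.03, and passed as higher with library size alone (0.44).

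Genes commonly listed as AP-1 targets stood mostly above 0. Of 19 listed, 10 passed the filter, 9 rose and none fell, with a median log2 fold change of 2.85. Of all tested genes 29.0% were higher and 26.0% lower. The filter keeps genes that are high in either group, so the 9 below it, which include Mmp3, Mmp10 and Il6 at 0 in every library, belong beside that count. Because the list was chosen with earlier results of these data known, the count is not an independent measure of AP-1 activity. Mmp14, a membrane matrix protease, had 521, 550 and 446 counts in EV and 5939, 4738 and 5238 in Sox4 (log2 fold change 2.82, SE 0.14, edgeR adjusted p = 8.16e-07). Ccnd1, which encodes cyclin D1, had 131, 462 and 406 counts in EV and 3644, 3707 and 6376 in Sox4 (3.22, SE 0.62, adjusted p = 0.00241). A protease and a cyclin gene were thus among those that rose, beside genes of signalling and stress. Lif, a cytokine of the interleukin-6 family, rose by 3.70, Spp1 by 2.89, Vim by 2.46, Hmox1, an NRF2 target as well, by 2.32 and Cd44 by 1.99. Plaur, with 2 counts over the EV libraries and 47 over the Sox4 libraries, had a ratio of 15.8 with a 95% exact counting interval of 4.14 to 134. Cd44, with at most 41 counts in a library, did not pass without EV 1, EV 2, Sox4 2 or Sox4 3. Hbegf, a growth factor gene, had a log2 value of 1.60 (SE 0.88, adjusted p = 0.0917) and passed with library size alone, with no filter and without EV 2.

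Genes known to respond to tissue dissociation and stress were listed because the AP-1 genes belong to that response and because both groups were dissociated. Of 19 listed, 17 were tested, and 10 rose and 1 fell, against 29.0% higher and 26.0% lower of all genes. The median log2 fold change of the 17 was 1.29. Below the filter were Klf4, with 3, 0 and 0 counts in EV and 3, 5 and 13 in Sox4, and Hspa1a, with 8, 7 and 3 against 3, 3 and 2. Ier3 had 0, 6 and 3 counts in EV and 286, 452 and 512 in Sox4 (log2 fold change 6.50, SE 0.63, edgeR adjusted p = 1.13e-05), and Egr2 rose by 4.61, Nr4a1 by 3.51, Ccn1 by 3.38, Myc by 3.02, Klf6 by 2.87 and Socs3 by 2.55. Egr1 (0.83) and Btg2 (0.70) also rose, but both lost the threshold without Sox4 1, without EV 3 and with the replicate block, and Btg2 without EV 1 as well. The list did not move as one. Hspa1b, a heat shock gene, fell by 2.33 in log2 (SE 0.47, adjusted p = 0.000927), from 67, 157 and 75 counts to 30, 19 and 39. Ier2 (0.23, SE 0.25, adjusted p = 0.343) and Dusp1, given above, did not pass, although Ier2 did with library size alone (0.70). Hspa8 (0.41) and Dnajb1 (0.43) did not pass with TMM. Hspa8 passed as higher with library size alone, with DESeq2, with no filter, without EV 3 and with the replicate block, and Dnajb1 with library size alone, with no filter and without EV 2. Atf3 and Dusp1 are also in lists given above. The part of cell isolation in the AP-1 changes was not tested.

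**Figure D4:**
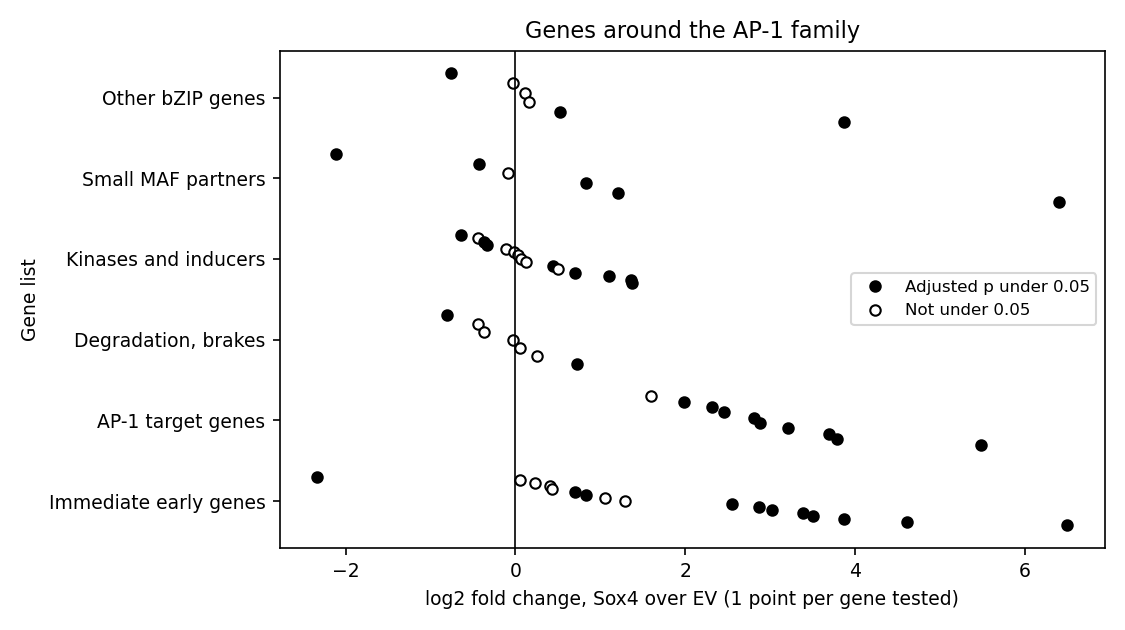
log2 fold change of Sox4 over EV for each tested gene of the 6 lists around the AP-1 family. Filled points had an edgeR adjusted p under 0.05 and open points did not, and the 9 filled points among AP-1 target genes all lie to the right of 0, while kinases and inducers lie on both sides.

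The genes whose level followed a member most closely over the 6 libraries were sought among the 9025 tested genes whose mean count reached 100, as a description. The libraries share their group, so any gene that differs between groups correlates with the members that rose. The closest to Fos were Pawr (Pearson r = 0.9987, n = 6 libraries), Brat1 (0.9955) and Limk2 (0.9947), to Fosb Ttll12 (0.9985), Mau2 (0.9983) and Knop1 (0.9978), and to Fosl2 Sufu (0.9985), Agap1 (0.9970) and Smn1 (0.9966). For Jun, whose groups overlapped, they were Exosc10 (0.9844), the immediate early gene Ier2 (0.9841) and Strn4 (0.9756).

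Markers of other liver cells moved beside these results, and their counts stand beside 29.0% of all genes higher and 26.0% lower. In bulk libraries fewer cells of a type and less RNA per cell cannot be told apart. Hepatocyte markers defined the libraries, with a summed level of 118600 to 141100 CPM in EV and 80290 to 91710 in Sox4, and 6 of 8 were lower. Most of this sum was Alb, at 99191 CPM in EV and 66525 in Sox4. With library size alone the groups overlapped for Alb and Hnf4a, whereas Apoa1, Cyp2e1, Ass1 and Asgr1 stayed lower in every Sox4 library than in any EV library. Kupffer cell markers summed to 10.5 to 23.3 CPM in EV and 25.2 to 61.6 in Sox4, and 4 of 8 tested rose. Among the Sox4 libraries they were lowest in Sox4 1. Endothelial markers summed to 15.8 to 23.1 CPM in EV and 12.5 to 29.4 in Sox4, with 2 of 7 higher and 1 lower, and stellate markers to 8.40 to 44.8 and 78.8 to 137 CPM, with 2 of 4 tested higher. Most of the stellate sum was Reln, at 22.4 CPM in EV and 98.1 in Sox4. Cholangiocyte markers summed to 27.5 to 43.7 CPM in EV and 71.5 to 84.7 in Sox4, with 2 of 4 tested higher, (Spp1, given above, and Epcam), while the defining markers Krt19 and Krt7 had no count in EV and at most 9 in a Sox4 library. Lymphoid and neutrophil markers summed to 0.77 to 2.28 CPM in EV and 1.40 to 4.29 in Sox4, with Ly6g at 0 throughout and none of 1 tested called. The part of these cells in the AP-1 changes was not tested.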

How the data were processed

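RNA-seq of 3 EV and 3 Sox4 hepatocyte samples was analysed, grouped by the sample labels. Reads were aligned by the authors to GRCm39 with STAR and counted per gene with featureCounts 2.0.1. The submitters' processing notes give STAR 2.7.10b, and the study's reporting summary names a different patch release. The deposited counts are raw. The authors also deposited a normalized signal, the counts divided by DESeq2 median-of-ratios size factors. The annotation release and strand setting are not given in the sources used here.

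Counts were tested in R 4.3.3 with edgeR 4.0.16 (filterByExpr with a minimum count of 10 and a minimum total count of 15, TMM, robust quasi-likelihood F test, no covariate, threshold 0.05), with limma 3.58.1 and DESeq2 1.42.0 as alternatives. The script was tested on simulated data. Each SE was computed from the spread of log2 CPM (prior count 2) within the groups. Counts of same-group libraries varied beyond counting noise (chi-square per degree of freedom 18.7 to 71.7) and each was counted as a sample. Exon lengths and overlaps came from GENCODE M21 (GRCm38), another build than that of the counts. Promoter sequences came from RefSeq (GRCm38.p6).

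The members and all gene lists, including the cell type markers, were chosen with earlier results of these data known. Named genes were the 10 members, Sox4, list members that passed the threshold with no overlap between groups, those of smallest change as contrast, and the 3 genes most like Fos, Fosb, Fosl2 and Jun. Genes of the lists named outside this rule (such as Jdp2, Hbegf, Zfp36, Hspa8, Dnajb1, Map2k7, Krt19 and the overlapping genes) were chosen after their values were seen. Some list members are counted in the totals but are not reported here. Alternatives were other scalings, tools, inputs and filters, leaving out each library, and replicate number as a block.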

Additional observations from a re-analysis of the deposited data

How the results depend on the processing

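The 8 tested members were refitted under 14 alternatives. Of the 112 log2 fold changes 105 kept their direction and their side of the threshold, 5 came to pass the threshold, 2 turned direction and 0 ceased to pass. Fos, Fosb, Fosl2 and Maff passed as higher in every alternative, including DESeq2, limma-voom and limma on the deposited normalized values. The number of members past the threshold was 7 with library size alone in place of 4, where the median of all genes was 0.51, and 4 to 5 in fits with 1 library left out. In those fits Junb ranged from -0.39, without Sox4 replicate 1, to 0.45 and Jund from -0.19, again without Sox4 replicate 1, to 0.36, and the cause was not tested. Same-numbered libraries deviated together at correlations of 0.275, -0.0935 and 0.129 across genes. Whether they share more than a number was not tested. With the replicate block 4 members passed, 39 genes of the other lists in place of 37, and 7362 genes of all, 6853 of them also called with no block. Over all alternatives 5937 to 8092 genes passed in place of 6990, and 79.9% of those called with library size alone were higher against 52.7% with TMM. Of the other lists 34 to 37 genes passed with 1 library left out and 47 with library size alone. Depth limits Fosl1 and Batf, at most 4 counts in a library, and Cd44, Plaur and Hbegf among the target genes.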
